A study of Mus musculus with 4 samples.

Results

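Skeletal muscle genes were read in 4 poly(A) RNA-seq libraries of mouse AGM explants. The AGM, short for aorta-gonad-mesonephros, is a trunk region where blood stem cells first form. The genes are 34 named muscle genes: 5 myogenic factors, 10 of the thin filament, 9 of the thick filament and titin, 3 of the Z-disc and its intermediate filament, and 7 of excitation and energy supply. All 34 were present by symbol among the 49997 genes counted. They were chosen by name from muscle biology with the fold changes between CCCP and untreated explants already known, among which that of the skeletal actin gene Acta1 stood out. Values of that comparison are therefore given here as a description of these genes, without a test that could support a direction.

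All embryos were C57BL/6J. Per the growth protocol they were of E10.5 and E11.5, while the design text names E10.5 alone. In both groups the explants were cultured for 48 hours on a membrane filter in medium with hydrocortisone. The untreated group (2 libraries) received nothing further. The other group (2 libraries) was kept for those 48 hours with 5 µM CCCP, a protonophore that dissipates the proton gradient across the inner mitochondrial membrane. No label says whether replicates came from separate litters, pools or cultures, so the spread between them may be technical. The labels give the cell type as stem cells and the design text speaks of c-kit+ cells, but the extraction protocol names whole explants. Col1a2, a collagen chain of mesenchyme, averaged 1052 CPM (counts relative to library size, with TMM scaling), Ptprc, the leukocyte antigen CD45, 5.18 CPM and Kit 53.5 CPM.

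Trunk skeletal muscle comes from the myotomes of the somites, which flank the dorsal aorta. The basic helix-loop-helix factors Myf5, Myod1, Myog and Myf6 commit progenitors to the lineage and drive their differentiation, together with MEF2 proteins, and they bind the E-box motif in muscle promoters. Differentiated cells fuse into myotubes and build sarcomeres, in which thin actin filaments with troponin slide along thick myosin filaments held in place by titin. Embryonic muscle uses its own set of isoforms, such as the embryonic and perinatal myosin heavy chains, the fetal gamma subunit of the acetylcholine receptor, and cardiac actin and troponin T.

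Total counts ran from 37360968 to 48827826 per library, and 3 counts, taken as the floor of detection, corresponded to 0.0599 to 0.0827 CPM. The libraries also differed in how counts were spread over long and short transcripts. The deviation of each gene from its mean over the libraries went with exon length at a Spearman's rho of 0.365 in untreated replicate 1, 0.003 in untreated replicate 2, -0.172 in CCCP replicate 1 and -0.317 in CCCP replicate 2. These are correlations across genes, which share library and length composition.

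Regulators and filament genes of embryonic muscle were present in all 4 libraries. Per kilobase of exon, the highest level was that of Actc1, the cardiac alpha-actin that embryonic skeletal muscle also uses, at 62.4 to 103 CPM per kb. Myog, the factor of terminal differentiation, came next at 19.2 to 49.8 CPM per kb, followed by Acta1 at 22.2 to 45.4, Tnnc1 at 21.4 to 31.4, Tnnt1 at 16.5 to 29.9 and the embryonic myosin Myh3 at 20.7 to 25.1. The ranges of these genes below Actc1 overlapped, so their order was not separated by the spread between libraries. At the other end stood Ckm, muscle creatine kinase, with 1, 5, 4 and 7 counts in untreated replicates 1 and 2 and CCCP replicates 1 and 2. Ckm was the single gene of the list that did not pass the filter on low counts, and 33 of 34 were tested.

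**Figure D1:**
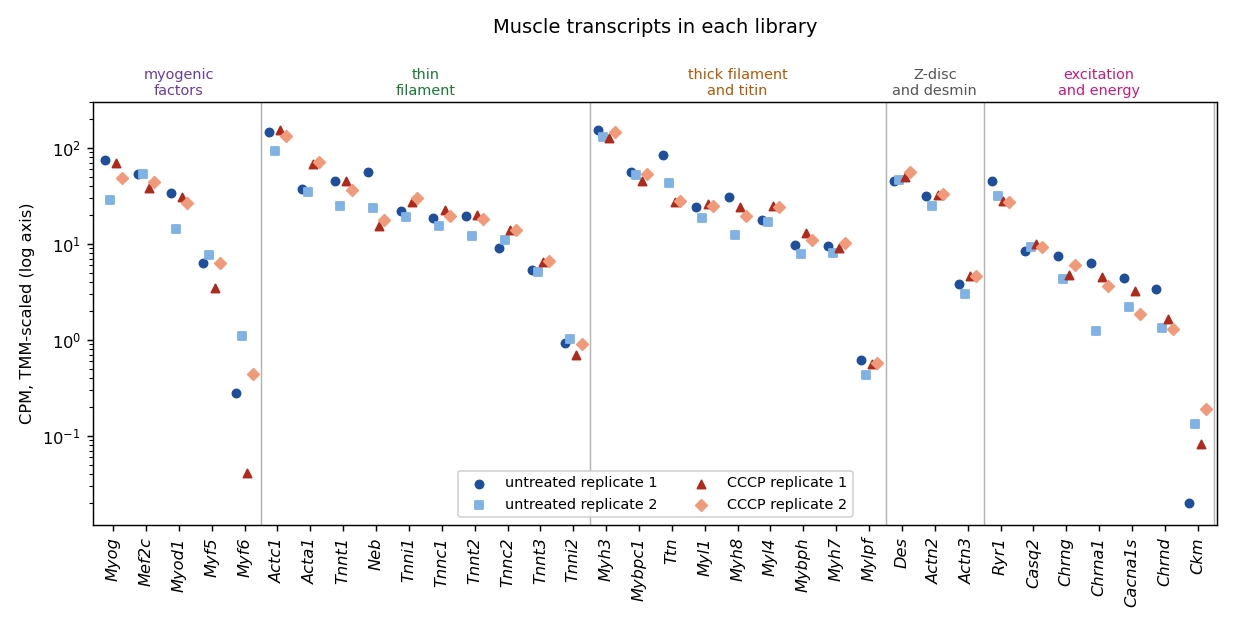
Level of each of the 34 muscle genes in each library (vertical log axis: TMM-scaled CPM; horizontal axis: genes by role, ordered by mean level; 1 point per library). Acta1 has both CCCP libraries (68.3 and 71.4) above both untreated libraries (37.5 and 34.8), while Neb and Ttn have untreated replicate 1 far above the other libraries.

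Markers were read to see which muscle this was. Pax3, a marker of skeletal muscle progenitors, averaged 51.5 CPM. Unlike most of the muscle list it was lower in untreated replicate 1 than in untreated replicate 2, at 36.3 and 67.5 CPM. The part of other tissues in its value was not tested. Of the 9 cardiac markers, 4 had low counts. Nkx2-5 had 6 to 19 counts per library and Nppa, the atrial natriuretic peptide, 8 to 22. Mybpc3, the cardiac myosin-binding protein, had 3 to 12 and Myl2, the ventricular light chain, 0 to 6. Nppa is annotated on 2 contigs, with 860 of its 1721 exon bases on chromosome 4, and multi-mapping reads were not counted. Its low count is therefore no measure of scarcity. Others were well above the floor: Myh6, the alpha myosin, had 103 to 205 counts, Tnni3, cardiac troponin I, 42 to 104 and Myl7, the atrial light chain, 22 to 87. The list summed to 53.9 and 40.2 CPM in untreated replicates 1 and 2 and to 39.2 and 32.0 CPM in CCCP replicates 1 and 2. The part of heart muscle in the values of genes that it shares with the muscle list, such as Actc1, Tnnt2, Tnnc1, Myl4 and Myh7, was not tested. Tbx5 and Gata4, which are also expressed in other mesoderm, averaged 21.8 and 12.5 CPM. They held most of the sum of the cardiac list in every library, so that sum is no measure of heart muscle. In untreated replicate 1 they had 30.8 and 15.1 CPM. The smooth muscle list, which shares Des with the muscle list, summed to 236 and 196 CPM in untreated against 232 and 318 CPM in CCCP libraries, led by Acta2 with a mean of 129.5 CPM and Smtn with 49.8 CPM. In bulk RNA, fewer muscle cells and less muscle RNA per cell cannot be told apart.

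Across the list, 11 genes had both CCCP libraries above both untreated libraries and 6 had both below, 17 of 33 or 51.5%, against 48.8% of all genes tested (24% higher, 24.8% lower). That share is near the background and is no result about muscle genes. No muscle gene passed an adjusted p-value of 0.05 in the quasi-likelihood test of edgeR (Benjamini-Hochberg over all genes), where 0% of all 19837 genes passed. At an unadjusted p under 0.05 there were 8 of 33, 4 higher and 4 lower, against 14.6% of all genes. DESeq2 called 3 (Acta1 higher, Neb and Ttn lower), against 2.99% of all genes. With no filter beyond 1 count 3 were called, against 3.43% of all genes. With the replicate number as a block 7 were called (10.7%), and with that block and the length trend removed 4 (7.83%). Leaving out untreated replicate 1, untreated replicate 2, CCCP replicate 1 and CCCP replicate 2 gave 0, 2, 0 and 0 calls, against 0.0491%, 0.214%, 0.13% and 0.162%. Nothing is read from these counts, since the list was made with this contrast in view. The median log2 fold change of the 33 genes was 0.13, against -0.01 over all genes tested. Leaving out untreated replicate 2 took it to -0.12, and leaving out untreated replicate 1 took it to 0.38.

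**Figure D2:**
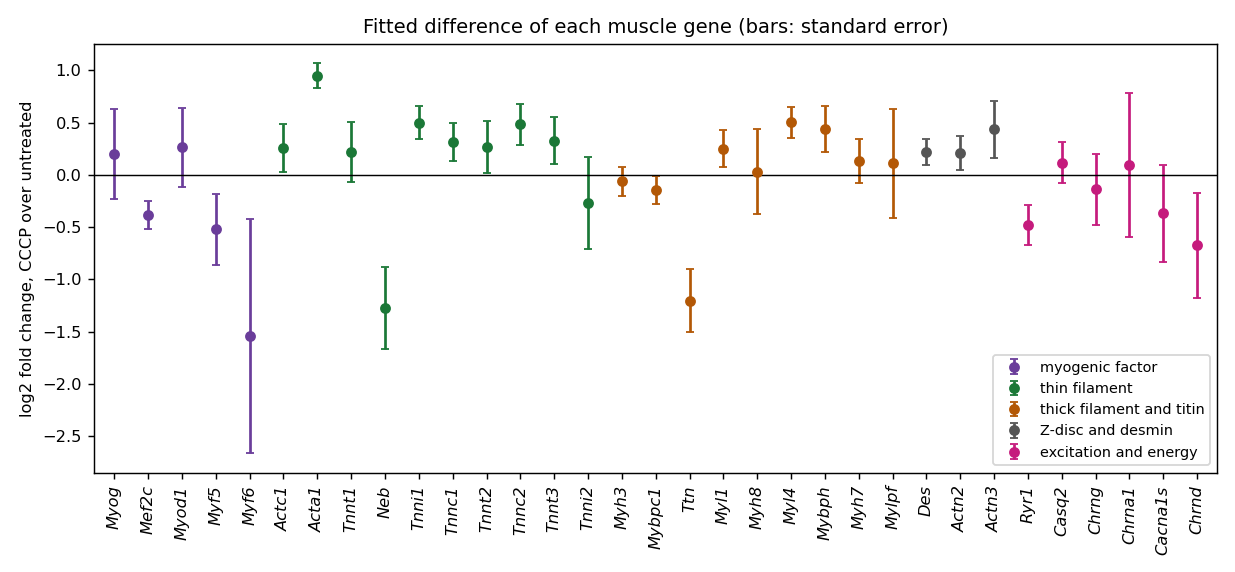
Log2 fold change, CCCP over untreated, of the 33 muscle genes tested (vertical axis; horizontal axis: genes by role; points: edgeR estimates; bars: standard error; colours: role; n = 2 libraries in each group). Acta1 stands highest at 0.95 with a short bar. Myf6, a gene of low counts, stands lowest at -1.54 with the longest bar. Neb and Ttn stand at -1.27 and -1.21, and most other bars lie close to or across 0.

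The 5 myogenic factors had no common direction: Myod1 and Myog stood above 0 and Mef2c, Myf5 and Myf6 below, with a median log2 fold change of -0.39. Myod1 (chromosome 7, 46376474 to 46379092), the determination factor, had 33.4 and 14.2 CPM in untreated replicates 1 and 2 and 30.9 and 26.4 CPM in CCCP replicates 1 and 2. Myog (chromosome 1, 134290004 to 134292548) had 73.6 and 28.5 CPM in untreated and 69.4 and 48.0 CPM in CCCP libraries. For both genes the CCCP values lay between the untreated ones, with untreated replicate 2 the lowest library and untreated replicate 1 the highest. Their log2 fold changes of 0.26 (standard error, SE, 0.379) and 0.20 (0.427) turned to -0.19 and -0.29 without untreated replicate 2 and to 1.03 and 1.06 without untreated replicate 1. That of Myog was also negative, at -0.08, without CCCP replicate 1.

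Mef2c (chromosome 13, 83504017 to 83667079), a cofactor of the myogenic factors that endothelial and neural cells express too, had 53.6 and 53.5 CPM in untreated and 37.6 and 44.4 CPM in CCCP libraries, a log2 fold change of -0.39 (SE 0.131). Its groups did not overlap, and its exons, at 7595 bases, share 474 bases with predicted genes on the other strand. Myf5 (chromosome 10, 107482908 to 107486927), the earliest of the determination factors, had 6.31 and 7.73 CPM in untreated and 3.50 and 6.29 CPM in CCCP libraries. Untreated replicate 1 and CCCP replicate 2 were nearly level, and the log2 fold change of -0.52 (SE 0.338) was -0.15 without CCCP replicate 1 and -0.99 without CCCP replicate 2. Myf6, also called Mrf4, had 14 and 41 counts in untreated and 2 and 16 counts in CCCP libraries, so that 1 library was under the floor and the groups overlapped. Its log2 fold change of -1.54 (SE 1.12) was -3.95 without CCCP replicate 2 and -0.23 without untreated replicate 2.

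In the thin filament, 8 of 10 genes had a log2 fold change above 0, against 9751 of 19837 over all genes tested. The group median was 0.29, or 0.10 with the length trend of each library removed. Acta1 (chromosome 8, 123891758 to 123894775), the alpha-actin of mature skeletal muscle, had 37.5 and 34.8 CPM in untreated and 68.3 and 71.4 CPM in CCCP libraries. The group means were 36.2 ± 1.92 and 69.8 ± 2.19 CPM (SD, n = 2). The log2 fold change was 0.95 (SE 0.117). The groups lay far apart relative to the spread within each, but the adjusted p-value of Acta1 in edgeR was 0.144. With any 1 library left out the log2 fold change was 0.93 to 1.01. Acta1 stood out before the list was made, so these values describe it and are no separate support. Actc1 (chromosome 2, 114047282 to 114052875) had 146 and 91.2 CPM in untreated and 151 and 133 CPM in CCCP libraries. Its groups overlapped, with untreated replicate 2 the lowest library, and its log2 fold change was 0.26 (SE 0.228), or -0.01 without untreated replicate 2 and 0.65 without untreated replicate 1.

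The ratio of both actins within a library does not depend on library scaling. Acta1 took 20.4% (19.6 to 21.3) and 27.6% (26.4 to 28.9) of the counts of Acta1 and Actc1 together in untreated replicates 1 and 2, and 31.1% (30.3 to 32.0) and 35.0% (33.9 to 36.1) in CCCP replicates 1 and 2. The ranges in brackets are 95% Wilson intervals, which cover counting error only. Both CCCP shares lay above both untreated shares, but the untreated shares were farther from each other than the higher of them was from the lower CCCP share. Other actins were read for comparison. The smooth muscle actin Acta2 had 124.5 and 90.4 CPM in untreated and 118 and 185 CPM in CCCP libraries, and Actg2 had 7.21 and 6.74 against 4.22 and 12.0 CPM, so both overlapped. The cytoplasmic actin Actb had 1648 and 1875 against 1811 and 1993 CPM and overlapped as well, while Actg1 had 1350 and 1533 against 1681 and 1836 CPM and did not. Actins are close paralogs. In GENCODE transcripts of the same build, 2.02% of the 50-base windows of Acta1 and 0% of those of Actc1 occur in another gene.

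**Figure D3:**
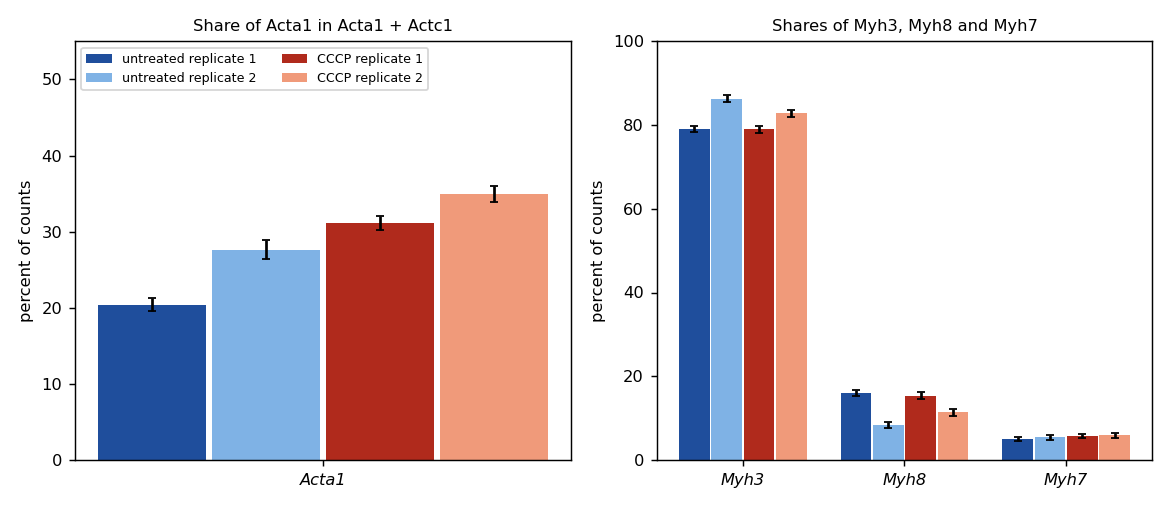
Shares of counts within muscle isoform families, per library (vertical axes: percent of the summed counts of the family, from 0; bars: libraries; error bars: 95% Wilson intervals). On the left Acta1 takes 20.4% and 27.6% in untreated and 31.1% and 35.0% in CCCP libraries; on the right Myh3 takes 79.0% to 86.3% in all 4.

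The sequences before the starts of both actin genes are shown because the ratio of the pair differed between libraries, and they share a CArG box, the motif bound by serum response factor. They are the 250 bases before the RefSeq start on GRCm38.p6, read on the minus strand, chr8:123894776-123895025 for Acta1 and chr2:114052876-114053125 for Actc1. Capitals mark the TATA motif TATAAA, the E-box CAGCTG and the CArG box.
Acta1: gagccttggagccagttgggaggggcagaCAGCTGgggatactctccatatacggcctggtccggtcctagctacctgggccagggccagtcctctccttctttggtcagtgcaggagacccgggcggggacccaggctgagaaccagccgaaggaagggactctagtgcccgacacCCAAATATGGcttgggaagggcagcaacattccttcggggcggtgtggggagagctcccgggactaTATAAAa
Actc1: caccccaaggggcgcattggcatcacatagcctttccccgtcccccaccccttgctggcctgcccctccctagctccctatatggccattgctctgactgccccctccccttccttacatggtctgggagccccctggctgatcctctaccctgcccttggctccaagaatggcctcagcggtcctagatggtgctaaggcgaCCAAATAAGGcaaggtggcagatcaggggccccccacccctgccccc
The CArG box began at position -73 in Acta1 and at -47 in Actc1, counted from the annotated start. Acta1 also held CAGCTG at -221 and TATAAA at -7, while Actc1 had no CAGCTG in this window. A TATAAA match of Actc1 began at position 33, after the annotated start and outside the printed bases. The CArG positions are therefore relative to the annotation only and are not compared between the genes. Of the 34 muscle genes, 27 had an entry in the promoter table, with 32 promoters of 300 bases (250 before and 50 after the start). CAGCTG, searched on both strands, was found in 13 of the 32 (40.6%) and in 16.3% of all 32851 promoters. The looser E-box CANNTG, which includes CAGCTG, was in 87.5% of the 32 and 72.3% of all. The CArG box was in 2 of the 32, those of Acta1 and Actc1, and in 1.63% of all, and the MEF2 box in 3 of the 32 (Casq2, Myh8 and Ttn) and in 3.19% of all. A match is a description of the letters, not a bound site.

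The troponins make the thin filament respond to calcium. Tnni1 (chromosome 1, 135783033 to 135810989), slow troponin I, had 21.7 and 19.0 CPM in untreated and 27.3 and 30.2 CPM in CCCP libraries, a log2 fold change of 0.50 (SE 0.154). Tnnc2, fast troponin C, had 9.01 and 10.9 CPM in untreated and 13.8 and 14.1 CPM in CCCP libraries, at 0.48 (SE 0.194). For both genes every CCCP value lay above every untreated value, as it did for Tnnc1 (0.31), slow and cardiac troponin C, and Tnnt3 (0.33), fast troponin T. In GENCODE transcripts 47.9% of the 50-base windows of Tnnc2 also occur in transcripts of Ube2c, so its counts are uncertain. Tnnt1, slow troponin T, and Tnnt2, cardiac troponin T, followed the pattern of Actc1: untreated replicate 2, at 24.6 and 12.1 CPM, was below the other 3 libraries, which held 35.9 to 44.7 and 18.2 to 19.9 CPM. Without that library the log2 fold change of Tnnt1 turned from 0.22 to -0.12 and that of Tnnt2 from 0.27 to 0.002, and without untreated replicate 1 they were 0.72 and 0.66. Tnni2, fast troponin I, was low, at 33 to 46 counts per library, and Tnni1 made up 94.9% to 97.5% of the counts of the pair.

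Nebulin, the giant protein that runs along the thin filament, was lower in both CCCP libraries, as was the scarce Tnni2 and no other gene of its group. Neb (chromosome 2, 52136640 to 52338798) had 56.5 and 23.3 CPM in untreated and 15.2 and 17.8 CPM in CCCP libraries. Both CCCP libraries were the lower ones, but most of the difference came with untreated replicate 1, which was 2.42 times untreated replicate 2. The log2 fold change of -1.27 (SE 0.395) became -0.49 when untreated replicate 1 was left out and -1.74 without untreated replicate 2. Its exons sum to 23690 bases, against 693 to 2203 bases for the other 9 genes of the thin filament.

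The 9 genes of the thick filament and titin had a median log2 fold change of 0.11, with 6 above 0 and 3 below. Titin, Ttn (chromosome 2, 76703980 to 76982557; 107403 exon bases), the elastic protein that spans the sarcomere from Z-disc to M-line, had 84.6 and 43.3 CPM in untreated and 27.4 and 28.1 CPM in CCCP libraries. Its CCCP libraries were close together and both below the untreated ones, and untreated replicate 1 was 1.96 times untreated replicate 2. The log2 fold change of -1.21 (SE 0.301) became -0.63 when untreated replicate 1 was left out and -1.58 without untreated replicate 2. Myl4 (chromosome 11, 104546017 to 104587215), the embryonic and atrial light chain, had 17.6 and 16.9 CPM in untreated and 24.9 and 24.0 CPM in CCCP libraries. Each of its groups was tight and lay apart from the other. Its log2 fold change was 0.50 (SE 0.148), or 0.48 to 0.54 with any 1 library left out. Myl1, a fast light chain, and Mybph, a myosin-binding protein, also had both CCCP libraries higher, at 0.25 and 0.44. Leaving out untreated replicate 2 took Myl1 to 0.11, and leaving out untreated replicate 1 took it to 0.45. Of the exons of Mybph, 1425 of 2622 bases overlap Adora1 on the other strand, and Myl1 is annotated on chromosome 1 and on an alternate contig, so both counts are uncertain.

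The myosin heavy chains, the motors of the sarcomere, were mostly of the embryonic kind. Myh3 (chromosome 11, 67078273 to 67102291) had 152 and 129 CPM in untreated and 125.5 and 144 CPM in CCCP libraries, a log2 fold change of -0.06 (SE 0.139). It held 79.1% and 86.3% of the counts of Myh3, Myh7 and Myh8 in untreated and 79.0% and 82.8% in CCCP libraries. Myh8, the perinatal chain, had 30.7 and 12.4 CPM in untreated and 24.4 and 19.7 CPM in CCCP libraries, which gave it 16.0% and 8.27% against 15.3% and 11.3% of those counts. Its share thus differed more between the replicates of a group than between the groups. Myh7, the slow and beta-cardiac chain, took 4.93% to 5.86% in all 4 libraries, and 3010 of its 6340 exon bases overlap genes on the other strand. The adult fast chains were rare, with 20 to 89 counts for Myh1, 12 to 72 for Myh4 and 2 to 16 for Myh2. The slow myosin-binding protein Mybpc1 had 56.5 and 52.3 against 45.1 and 53.4 CPM and overlapped, and Mylpf, a fast regulatory light chain, had 16 to 31 counts per library.

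At the Z-disc, where thin filaments are anchored, all 3 genes had both CCCP libraries higher by a small amount. The same held for 24% of all genes tested. The smallest adjusted p-value of the 3 genes in edgeR was 0.451, and nothing is read from this count. Des (chromosome 1, 75360292 to 75368579), desmin, the muscle intermediate filament, had 45.4 and 45.8 CPM in untreated and 49.7 and 56.4 CPM in CCCP libraries, a log2 fold change of 0.22 (SE 0.123). Actn2 and Actn3, the sarcomeric alpha-actinins, stood at 0.21 (SE 0.162) and 0.44 (0.273). With 1 library left out, Des ran from 0.13 (without CCCP replicate 2) to 0.31, and Actn2 from 0.07 (without untreated replicate 2) to 0.40 (without untreated replicate 1). Desmin is shared with smooth muscle, whose list had its highest summed level in the same library as Des, CCCP replicate 2. Des is itself part of that sum, so this is no separate reading. Acta2 held 185 of the 318 CPM of the sum in that library. The part of smooth muscle in the value of Des was not tested.

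The excitation and energy genes, 6 of 7 tested, had a median log2 fold change of -0.25, and their untreated libraries differed by a median log2 ratio of 0.91. Chrna1 (chromosome 2, 73563281 to 73580338), the alpha subunit of the muscle acetylcholine receptor, had 6.35 and 1.23 CPM in untreated and 4.47 and 3.67 CPM in CCCP libraries. Untreated replicate 1 was 5.16 times untreated replicate 2, on 318 and 46 counts, and both CCCP libraries lay between them. Chrnd, the delta subunit, had 3.36 and 1.34 CPM in untreated and 1.65 and 1.30 CPM in CCCP libraries, and Chrng, the fetal gamma subunit, 7.53 and 4.25 against 4.74 and 6.01 CPM. Untreated replicate 1 was the highest library for all 3 subunits. Chrng made up 96.9% to 98.8% of the counts of Chrng and Chrne, the adult epsilon subunit, which had 2 to 12 counts. Chrne is annotated on 2 contigs, with 1613 of its 3204 exon bases on chromosome 11, and multi-mapping reads were not counted. Its low count is therefore no measure of its level, and the share of Chrng is uncertain. Without untreated replicate 1 the log2 fold changes of Chrna1, Chrnd and Chrng turned from 0.09, -0.68 and -0.14 to 1.73, 0.15 and 0.34. Without untreated replicate 2 they were -0.61, -1.15 and -0.46, and without CCCP replicate 1 those of Chrna1 and Chrng were -0.05 and 0.03.

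The upstream sequences of 2 receptor genes are shown because Chrna1 differed most between the untreated libraries and Chrng is the fetal subunit. They were picked after their values were seen, and capitals mark CAGCTG. They are the 250 bases before the RefSeq start on GRCm38.p6, chr2:73580339-73580588 on the minus strand for Chrna1 and chr1:87205561-87205810 on the plus strand for Chrng.
Chrna1: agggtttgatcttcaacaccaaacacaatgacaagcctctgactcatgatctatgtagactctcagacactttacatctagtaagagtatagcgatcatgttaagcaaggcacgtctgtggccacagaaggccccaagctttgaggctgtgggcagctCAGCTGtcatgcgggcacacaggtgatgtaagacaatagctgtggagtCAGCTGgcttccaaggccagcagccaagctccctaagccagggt
Chrng: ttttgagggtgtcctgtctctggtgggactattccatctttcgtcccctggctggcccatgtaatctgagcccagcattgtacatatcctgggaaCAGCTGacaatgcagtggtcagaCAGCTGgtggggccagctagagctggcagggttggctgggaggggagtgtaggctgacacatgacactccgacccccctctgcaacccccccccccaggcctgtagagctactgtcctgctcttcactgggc
The motif began at positions -92 and -44 in Chrna1 and at -155 and -132 in Chrng. A promoter of Tnnt2 also held it at 2 positions. CAGCTG was also in promoters of Acta1 and Des, whose ratios of untreated replicate 1 to 2 were 1.08 and 0.992. Myh8 and Myog, at 2.49 and 2.59, held other CANNTG matches but not CAGCTG. These genes were picked after their values were seen, and a link of the motif to the ratio was not tested.

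Of the calcium-handling genes, Ryr1 (chromosome 7, 29003340 to 29125179; 15779 exon bases), the calcium release channel of the sarcoplasmic reticulum, had 45.5 and 31.7 CPM in untreated and 28.1 and 27.2 CPM in CCCP libraries. Both CCCP libraries were lower, and untreated replicate 1 stood apart from the other 3. Its log2 fold change of -0.48 (SE 0.194) was -0.19 without untreated replicate 1. Cacna1s, the voltage sensor that opens Ryr1, had 4.44 and 2.19 against 3.26 and 1.88 CPM, with overlapping groups. It stood at -0.37, or 0.24 without untreated replicate 1, -0.75 without untreated replicate 2, -0.82 without CCCP replicate 1 and -0.02 without CCCP replicate 2. Casq2, a calcium buffer, had 8.49 and 9.28 against 9.97 and 9.26 CPM and overlapped.

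The 3 muscle genes with over 10 kb of exon, Ttn, Neb and Ryr1, all had both CCCP libraries lower, a class chosen after their values were seen. The same held for 919 of all 1834 tested genes with 10 kb or more. Their median log2 fold change was -0.36, with 1526 below 0, against 0.03 over the 18003 shorter ones. Spearman's rho between log2 fold change and exon length was -0.43 across the 33 muscle genes, -0.29 across the 30 of them with under 10 kb, and -0.35 across all genes tested. These points share the same 4 libraries and the same length composition. With the length trend of each library removed, the log2 fold change was -0.82 for Neb, -0.74 for Ttn, -0.15 for Ryr1, -0.24 for Mef2c, 0.80 for Acta1, 0.34 for Tnni1, 0.29 for Tnnc2 and 0.57 for Myl4. The median of the thin filament group was then 0.10. The correction changed the sign of Mylpf and Myh3, from 0.11 to -0.10 and from -0.06 to 0.02.

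**Figure D4:**
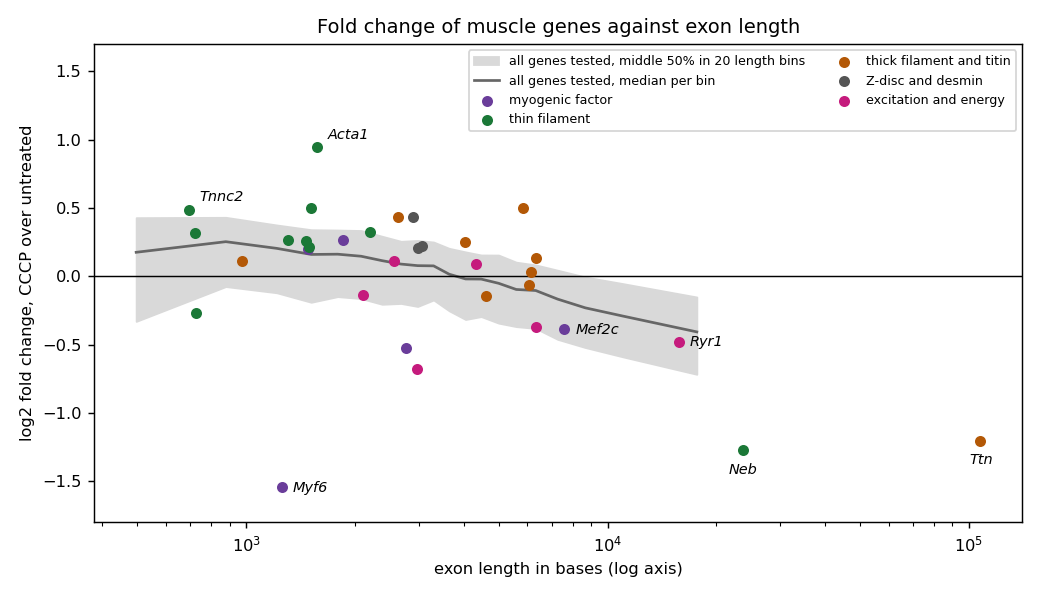
Log2 fold change, CCCP over untreated, of the 33 muscle genes tested (vertical axis) against exon length in bases (horizontal log axis; colours: role; grey line and band: median and middle 50% of all genes tested in 20 length bins). Ryr1 lies within the band of all genes at its length, Acta1 lies above the band at 0.95, and Neb and Ttn lie at -1.27 and -1.21 beyond the centre of the last bin.

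The spread between the untreated libraries ran in 1 direction for most of the list. Untreated replicate 1 was above untreated replicate 2 in 27 of the 33 muscle genes, with a median log2 ratio of 0.35, while over all genes tested this was so in 9892 of 19837, with a median of -0.001. Between the CCCP libraries, replicate 1 was higher in 16 of 33, with a median log2 ratio of -0.03. The ratio of untreated replicate 1 to 2 was 2.36 for Myod1, 2.59 for Myog, 2.49 for Myh8, 2.51 for Chrnd and 2.02 for Cacna1s, but 1.08 for Acta1, 1.04 for Myl4, 1.14 for Tnni1 and 0.992 for Des. Each role thus held genes with wide and with narrow gaps between these 2 libraries, except the Z-disc group, where the ratio was 0.992 to 1.28. In the thin filament it ran from 0.824 for Tnnc2 to 2.42 for Neb, and in the thick filament and titin from 1.04 for Myl4 to 2.49 for Myh8. Mef2c was level, and Myf5 and Myf6 were lower in untreated replicate 1, at ratios of 0.817 and 0.255. The mesenchymal marker list summed to 3018 CPM in untreated replicate 1, 1719 in untreated replicate 2, and 2481 and 1887 CPM with CCCP. The hepatic marker list summed to 1399 and 811 CPM in untreated and 3.46 and 65.0 CPM in CCCP libraries, led by Afp and Alb, whose means were 371 and 135 CPM. The part of these other tissues, of dissection or of transcript length in the muscle values was not tested.

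**Figure D5:**
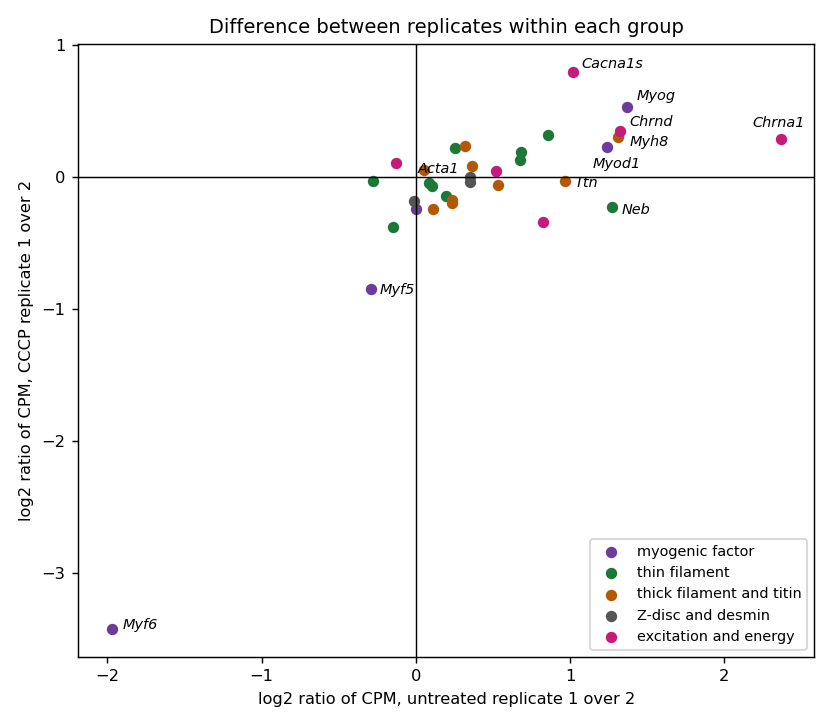
Ratio of replicate 1 to replicate 2 within each group for the 33 muscle genes tested (horizontal axis: log2 ratio of CPM in untreated, vertical axis: in CCCP libraries; colours: role). Most genes lie right of 0 on the horizontal axis and close to 0 on the vertical one; Chrna1 lies farthest right, and Myf6, with 2 to 41 counts, farthest down and left.

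Beyond the list, 81 other muscle genes were read: progenitor and fusion genes, further filament and Z-disc proteins, and further excitation and energy genes. Of these, 73 were tested, and 0 passed the adjusted p-value in edgeR. At an unadjusted p under 0.05 there were 4, 1 higher and 3 lower, against 14.6% of all genes. DESeq2 called 2, Mef2a and Dmd, both lower. Over all 19837 genes it called 594 (2.99%), of which 535 were lower, so nothing is read from this count. The median log2 fold change was -0.07, with 31 above 0 and 42 below, and both CCCP libraries lay higher for 12 and lower for 13 (24% and 24.8% of all genes). The median turned to 0.11 without untreated replicate 1.

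Of those with a mean of at least 1 CPM, Cryab and Myoz2 were the highest. Cryab, a small heat shock protein that protects desmin filaments, had 4.71 and 4.79 CPM in untreated and 6.49 and 10.8 CPM in CCCP libraries, a log2 fold change of 0.86. Myoz2, which binds calcineurin at the Z-disc, had 1.92 and 1.34 against 2.80 and 2.70 CPM, at 0.75. They were followed by Tmod4, a cap of thin filament ends, at 0.43, Jph2, a junctophilin, at 0.38 and Klhl40 at 0.36, all 3 with overlapping groups.

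The lowest was Dmd, dystrophin, which links the filaments to the membrane, with 17.9 and 16.5 CPM in untreated and 9.48 and 6.31 CPM in CCCP libraries, at -1.12 on 18975 exon bases. Musk, the kinase that gathers acetylcholine receptors, had 5.69 and 2.0 against 2.25 and 1.57 CPM, at -1.01, and untreated replicate 1 was again the highest library. Tnni3 and Myh6, the cardiac troponin I and alpha myosin, stood at -0.80 and -0.70, and Nebl, the nebulin relative nebulette, at -0.63 on 21841 exon bases. All 3 had both CCCP libraries lower. The fusion gene Mymx repeated the pattern of Chrna1, with 5.31 and 1.28 CPM in untreated and 4.51 and 2.84 CPM in CCCP libraries, and was picked after its values were seen. Rapsn, the receptor anchor, and Xirp2 were listed at 0 in all 4 libraries. For Rapsn the 0 is no measure of absence: it is annotated on 2 contigs, multi-mapping reads were not counted, and all 1775 of its exon bases on chromosome 2 overlap Gm13778 on the other strand.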

How the data were processed

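The authors deposited raw counts of reads per gene for each library. Per the file headers they were made with featureCounts 2.0.3 on exons of the mm10 NCBI RefSeq annotation, summed by gene, with no strand option, no multi-mapping or multi-overlap option, and paired input counted as single reads. Per the submitters' processing notes FastQC, HISAT2, SAMtools and Subread were used on mm10; HISAT2's settings are not given in the sources used here. Genes that overlap on either strand, paralogs and genes repeated on alternate contigs are therefore undercounted or uncertain. Per the file headers the exon length of a gene is its merged exon bases.

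From the counts, CPM with TMM scaling and fold changes were computed with edgeR 4.0.16 in R 4.3.3 (filterByExpr, minimum count 10 and total 15; quasi-likelihood test, group as the sole term, all 4 libraries, Benjamini-Hochberg over all genes, threshold 0.05). A standard error is the log2 fold change divided by the square root of F. With 2 libraries a group, precision is low. Alternatives were RLE scaling, total counts as the only scaling, no filter beyond 1 count, DESeq2 1.42.0, a replicate block, removal of the length trend (spline, 5 degrees of freedom) and leaving out each library. The fits were tested on simulated data. The muscle genes, other lists and tests were chosen with earlier results of these data known. All members were described; of the other muscle genes the 5 highest and 5 lowest fold changes above a mean of 1 CPM were named, and of each marker list the 2 best expressed genes, except that 1 marker and the values of its list are not reported here. Endothelial markers (Cdh5, Pecam1), blood markers (Hbb-y, Hba-a1) and neural markers (Tubb3, Stmn2) had median log2 fold changes of -0.19, 0.07 and 0.41, mesenchymal markers (Col1a2, Col1a1) -0.16, cardiac markers -0.52, smooth muscle markers 0.22 and hepatic markers -4.96. Promoter sequences came from a RefSeq table for GRCm38.p6, the assembly of mm10; protein sequences were not used here.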

Additional observations from a re-analysis of the deposited data

How the results depend on the processing

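The count of all genes past the adjusted p-value moved from 0 to 1107 without a filter beyond 1 count, 594 in DESeq2, 2118 with the replicate block, 1553 with replicate block and length trend removal together, and 10 to 46 when 1 library was left out. Of the muscle list the same fits called 3 (Acta1, Neb and Ttn), 3 (the same genes), 7 (also Mef2c, Tnni1, Myl4 and Ryr1), 4 (Acta1, Neb, Myl4 and Ttn) and 0 to 2 (Neb and Ttn without untreated replicate 2); of the other muscle genes they called 2, 2, 5, 2 and 0. RLE scaling, total counts as the only scaling and the length trend removed without a block gave 0 for all 3 counts. No label says what a replicate number marks. Same-numbered libraries deviated together (correlation 0.36 across genes), but with 2 pairs the numbers were not taken as pairs, so the replicate block is no more than an alternative.

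The median log2 fold change of the thin filament group was 0.096 with the length trend removed, 0.135 with replicate block and length trend removal together, and between 0.114 and 0.534 when 1 library was left out. Leaving out 1 library also moved the medians of the whole muscle list (-0.116 to 0.38), thick filament and titin (-0.094 to 0.414), Z-disc and desmin (0.198 to 0.404), excitation and energy (-0.647 to 0.197), myogenic factors (-0.5 to -0.153) and other muscle genes (-0.109 to 0.113); in each case the cause was not tested. Of the 33 muscle genes, 22 kept the sign of their fold change in all 4 fits that left out 1 library, 14 higher and 8 lower in CCCP. The matching share over all genes was not computed, so nothing is read from this count. Each such fit has 1 library in an arm, assumed to vary like the other group. The sign of Myh8 changed with total counts as the only scaling. Depth limits Ckm, Myf6, Mylpf and Tnni2, all below 50 counts per library.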
